A study of Mus musculus with 6 samples.

Results

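The enzymes examined here burn fatty acids in mitochondria. They are the 10 genes *Cpt1a*, *Slc25a20*, *Cpt2*, *Acadvl*, *Acadl*, *Acadm*, *Acads*, *Hadha*, *Hadhb* and *Etfdh*, found by their gene name among the 21528 genes listed in at least 1 library, and all 10 were above 0 FPKM in each of the 6 libraries. FPKM count the sequenced fragments of a gene relative to transcript length and to the fragments of the whole library, so that levels of different genes can be set side by side. The libraries came from the liver of 3 wild type mice (WT) and 3 mice with the trim24 C52/55A KI genotype, called KI below and TRIM24 C52/55A in the plots, all of strain C57BL/6, 5 months old and on a high fat diet with 60% fat for 3 months, with 1 library per mouse. Values of single libraries are given in the order of replicates 1 to 3 of each genotype. The knockin was made by CRISPR/Cas9 on the C57Bl/6J background, as the study's methods give it, replaces a pair of cysteines of the E3-ligase TRIM24 with alanine and is carried by every cell of the body, and the WT mice were littermates from matings of heterozygotes. Whether the mutation moves the genes of fatty acid oxidation is asked here of the liver as a whole, where fewer cells of a type and less RNA per cell cannot be told apart.

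Long-chain fatty acids enter the mitochondrial matrix as carnitine esters. CPT1A on the outer membrane makes the ester, the carrier SLC25A20 exchanges it for free carnitine across the inner membrane, and CPT2 turns it back into an acyl-CoA. Each turn of the spiral then begins with an acyl-CoA dehydrogenase chosen by chain length, goes on through hydration, a second oxidation and thiolysis, and hands its electrons over ETF and ETFDH to the respiratory chain. In the liver the spiral feeds ketone body synthesis during fasting, and most of its genes are known targets of the fatty acid sensor PPARα.

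All 10 genes had lower mean FPKM in the KI liver, by 11.7% for *Acadvl* to 31.7% for *Acadl*. 5 of them fell at an adjusted p-value under 0.05, namely *Acadl*, *Slc25a20*, *Cpt1a*, *Acadm* and *Hadha*, and none rose. The test was limma on log2(FPKM + 1) with Benjamini-Hochberg adjustment over the 12225 genes whose mean reached 0.5 FPKM, of which 6.09% were called lower and 1.64% higher, 7.72% in all. The median log2 fold change of the 10 genes was -0.31, beside -0.08 for all genes tested, of which 65.5% had a log2 fold change below 0. Before adjustment 9 of the 10 were under 0.05, all but *Acadvl*, against 23.6% of all genes tested. For 9 of the 10 genes every KI library lay below every WT library, as was the case for 22.5% of all genes tested. *Acadvl* was the gene whose groups overlapped. With 1 library left out the number called was 1 without WT replicate 3 or KI replicate 1, 2 without WT replicate 1, 3 without KI replicate 3 and 4 without WT replicate 2 or KI replicate 2. Over all 12225 genes tested, 744 were called lower with all 6 libraries. That number was 213 without WT replicate 3, 202 without KI replicate 1 and 217 without WT replicate 1. It was 597 without KI replicate 3, 348 without WT replicate 2 and 1033 without KI replicate 2.

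**Figure D1:**
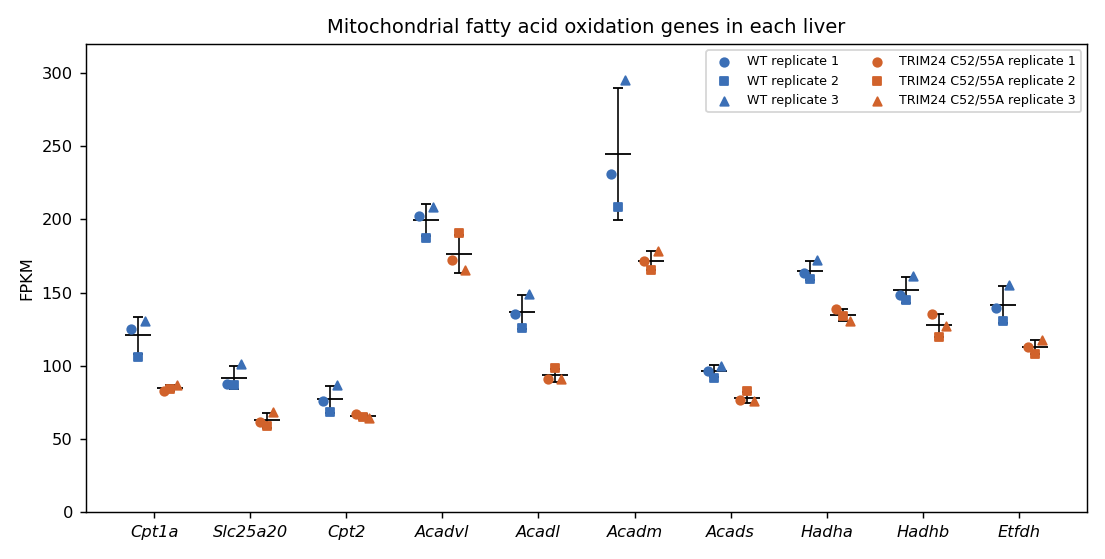
FPKM (vertical axis, from 0) of the 10 genes in each of the 6 livers, with blue symbols for WT, orange symbols for TRIM24 C52/55A (KI), 1 symbol shape per replicate number, and black bars for the mean and SD of 3 libraries. The orange symbols lie below the blue ones for every gene but *Acadvl*, where KI replicate 2 (191 FPKM) is above WT replicate 2 (187 FPKM).

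Some properties of the libraries bear on these values. *Trim24* itself had 4.85 to 5.96 FPKM in WT and 4.31 to 8.46 FPKM in KI livers, which does not check a change of codons. Relative depth, read from the spacing of the lowest FPKM, was 0.963 to 1.03. FPKM summed to between 644619 and 648221 in WT and between 673244 and 676791 in KI libraries, and the 50 most abundant genes took 43.2% to 44.4% of that sum in WT and 49.0% to 50.5% in KI. The share left for other genes therefore differed with genotype, and calls for the 10 genes and the lists of related genes are also given under median-of-ratios scaling, which sets the typical gene of every library to the same level. The hepatocyte markers with a value, 8 of 10 listed, were expressed in all libraries and summed to 31317 to 32233 FPKM in WT and 27865 to 30137 FPKM in KI, and of the 8 *Apoa2* and *Asgr1* were called lower and *Cps1* higher. With median-of-ratios scaling 1 of the 8 was called lower (*Apoa2*) and 3 higher (*Cps1*, *Ahsg* and *Serpina1a*), and with quantile normalization *Apoa2* lower and *Cps1* higher. These genes were named after their values were seen. Of 10 adipocyte markers, 8 were highest in KI replicate 2, where *Adipoq* had 4.55 FPKM, against 0 to 0.127 FPKM in the other 5 libraries, and *Lep* had 3.98 FPKM, against 0 in each of the others. The whole list, most of it *Pck1*, which hepatocytes also use, summed to 848 to 979 FPKM in WT and to 502 to 1184 FPKM in KI. Without that library 4 of the 10 oxidation genes were called, all lower, with a median log2 fold change of -0.31. In that setting 1033 of the 12225 genes were called lower and 239 higher, and the median of all genes tested was -0.10. Markers of other cell types were examined in the same way. All 9 macrophage markers tested had log2 fold changes below 0 (65.5% of all genes tested), with a median of -0.28. None of them was without overlap, 0 were called by limma, and the 2 under 0.05 before adjustment are near the 23.6% of all genes tested. *Lyve1*, of liver sinusoidal endothelium, and *Plin4*, of adipocytes, were called lower (log2 fold changes -1.26 and -1.26, in 9 and 11 of the 15 alternative settings). *Cd4*, of T cells, and *Adrb3*, of adipocytes, were called higher (1.11 and 1.86), also in all 15 alternative settings. These were the only called genes of their lists, whose other members were mixed in direction. Of the markers tested, 6 of 8 endothelial, 3 of 8 adipocyte and 1 of 2 lymphocyte genes had log2 fold changes below 0. Without KI replicate 2 macrophage markers had a median of -0.39 with 2 of 9 called lower (*Cd68* and *Csf1r*), and 3 of 8 stellate markers, the collagen genes *Col1a1*, *Col1a2* and *Col3a1*, were called lower, against 0 of either list with all libraries. These 5 genes were named after their values were seen, and the part of these cells in the results was not tested.

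*Cpt1a* is the rate-controlling step of entry and the target of malonyl-CoA. It lies on chromosome 19 from 3323301 to 3385732 on the + strand (GRCm38, as the files give it) and has 19 exons in transcript Cpt1a-201. The 3 WT livers had 125, 106 and 130 FPKM and the KI livers 82.9, 84.0 and 86.7 FPKM. The KI values lay within a few FPKM of each other and the highest was 18.3% below the lowest WT value. *Cpt1a* fell from 121 ± 12.8 to 84.5 ± 1.94 FPKM (SD, n = 3 each), which is -0.50 on the log2 scale (standard error 0.09, limma adjusted p = 0.0170). These values are of RNA only, and the paper reports CPT1 and PPARα protein as normal in the liver of these knockin mice. With 1 library left out the call was lost without WT replicate 1 (adjusted p = 0.0717), WT replicate 3 (0.0677) or KI replicate 1 (0.0703).

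*Slc25a20*, the carnitine-acylcarnitine carrier of the inner membrane, lies on chromosome 9 from 108662088 to 108684641 on the + strand and has 9 exons. It had 87.4, 87.1 and 101 FPKM in WT and 61.3, 58.6 and 68.5 FPKM in the KI livers. Here the gap was wider, and the highest KI library was 21.4% below the lowest WT library. The log2 fold change was -0.54 (standard error 0.09, limma adjusted p = 0.0142), and the adjusted p was over 0.05 without WT replicate 3 (0.0554) or KI replicate 1 (0.0621) alone among the 6 libraries.

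*Cpt2*, on chromosome 4 from 107903981 to 107923610 on the - strand, completes the shuttle on the matrix side. It had 75.8, 68.1 and 86.8 FPKM in WT and 67.2, 64.9 and 63.9 FPKM in the KI livers. The groups were parted by 1.40% of the lowest WT value, and the log2 fold change of -0.22 (95% interval -0.45 to -0.00) had a limma adjusted p of 0.205. The log2 fold change was -0.14 without WT replicate 3, -0.12 with median-of-ratios scaling and -0.07 with quantile normalization. The ratio of *Cpt1a* to *Cpt2* within a library is the same with FPKM, TPM and median-of-ratios scaling, which apply a single factor to each library. It was 1.65, 1.56 and 1.50 in WT and 1.23, 1.29 and 1.36 in KI, so that the first step of the shuttle was lower relative to the last in each KI library than in any WT library. The mean log2 ratio differed by -0.28 (p = 0.1 in a two-sided exact permutation test, which 3 against 3 samples cannot go below, and 0.15 adjusted over the 3 ratios computed).

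The 4 acyl-CoA dehydrogenases divide fatty acids by chain length, from very long (*Acadvl*) over long (*Acadl*) and medium (*Acadm*) to short (*Acads*). *Acadl* and *Slc25a20* had nearly the same fold change, and which of them was larger varied with the setting. *Acadl* lies on chromosome 1 from 66830839 to 66863277 on the - strand and had 135, 126 and 149 FPKM in WT and 91.1, 98.2 and 90.8 FPKM in the KI livers. The highest KI library was 21.8% below the lowest WT library. *Acadl* fell from 137 ± 11.8 to 93.4 ± 4.20 FPKM (SD, n = 3 each), which is -0.54 on the log2 scale (standard error 0.08, limma adjusted p = 0.0102), and it was the 1 gene of the 10 called in every one of the 15 alternative settings, with adjusted p-values of 0.00579 to 0.0492.

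*Acadm*, on chromosome 3 from 153922357 to 153944632 on the - strand, had the highest WT mean of the 10 genes. It had 231, 208 and 295 FPKM in WT and 172, 165 and 178 FPKM in the KI livers. WT replicate 3 stood far above the other WT livers, and the coefficient of variation was 18.4% in WT and 3.71% in KI. The log2 fold change of -0.49 (standard error 0.12) had a limma adjusted p of 0.0495, just under the threshold, and of 0.0936 without WT replicate 3, over a range of 0.0255 to 0.146 in the 15 settings. The call was also lost when any library but WT replicate 2 was left out, with adjusted p-values up to 0.146 without KI replicate 1.

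*Acads*, on chromosome 5 from 115110299 to 115119346 on the - strand, had 96.6, 91.7 and 99.8 FPKM in WT and 76.6, 82.6 and 75.6 FPKM in the KI livers. The groups did not overlap, and the log2 fold change of -0.29 (95% interval -0.46 to -0.12) had a limma adjusted p of 0.0514. Without KI replicate 2, the library with adipocyte transcripts and the highest *Acads* of its group, the adjusted p was 0.0337, and with any other library left out it was 0.0943 to 0.180. It was 0.142 with median-of-ratios scaling and 0.334 with quantile normalization. *Acadvl*, on chromosome 11 from 70010183 to 70015411 on the - strand in GENCODE M21, had 203, 187 and 209 FPKM in WT and 172, 191 and 166 FPKM in the KI livers. KI replicate 2 lay within the WT range, and the log2 fold change of -0.18 had a 95% interval of -0.37 to 0.01 (limma adjusted p = 0.241). The log2 fold change was -0.08 with median-of-ratios scaling and -0.05 with quantile normalization. The interval that the files give for *Acadvl* spans 14.8 kb and takes in the neighbour *Dvl2*, which has a row of its own with a mean of 2.17 FPKM, beside 188 FPKM for *Acadvl*.

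The enzymes for very long and long chains were also set against each other. The ratio of *Acadl* to *Acadvl* was 0.668, 0.670 and 0.715 in WT and 0.530, 0.514 and 0.548 in the KI livers. Each KI library was below each WT library, with a mean log2 difference of -0.37 (two-sided exact permutation p = 0.1, the smallest possible, and 0.15 adjusted over the 3 ratios). The 4 acyl-CoA dehydrogenases of amino acid breakdown, which pass their electrons to ETF as well, make a comparison within the family. Of these *Gcdh*, of lysine breakdown, fell by 0.48 on the log2 scale (limma adjusted p = 0.0210), with 268, 271 and 305 FPKM in WT and 188, 193 and 223 FPKM in KI. *Ivd* and *Acad8* had log2 fold changes of -0.06 and -0.13, and *Acadsb* had 0.32 (limma adjusted p = 0.152). With median-of-ratios scaling *Ivd* and *Acad8* had 0.04 and -0.03, and with quantile normalization 0.10 and 0.01. Under median-of-ratios scaling 0 of the 4 were called and *Gcdh* had an adjusted p of 0.0509, and 0 were called when any WT library or KI replicate 1 was left out.

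**Figure D2:**
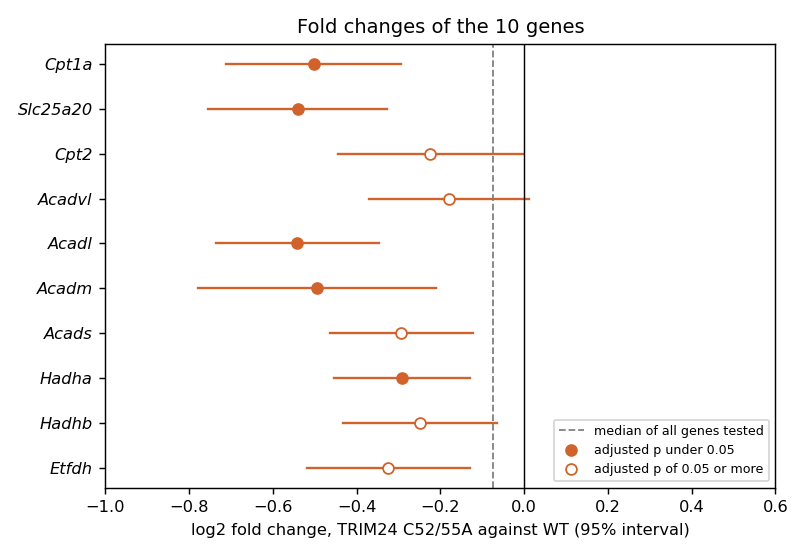
Log2 fold change of each gene in the KI against the WT liver (horizontal axis, on the log2(FPKM + 1) scale) with its 95% interval from limma, filled where the adjusted p-value is under 0.05. *Cpt1a*, *Slc25a20*, *Acadl* and *Acadm* lie between -0.54 and -0.49, the other 6 between -0.32 and -0.18, and the dashed line marks the median of all genes tested (-0.08).

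*Hadha* and *Hadhb* encode the α and β subunits of the mitochondrial trifunctional protein, which carries out the last 3 reactions of the spiral on long chains. Both lie on chromosome 5, *Hadha* on the - strand from 30118304 to 30155162 and *Hadhb* on the + strand from 30155248 to 30184593 (GENCODE M21, GRCm38), head to head with 85 bases between their starts. The interval that the files give for *Hadha* begins at 30103584. It takes in *Garem2* (mean of 0.00195 FPKM) and, on the same strand, the protein-coding gene *3110082J24Rik*, which has no value of its own. Whether fragments of that gene were counted for *Hadha* was not tested. *Hadha* had 164, 159 and 173 FPKM in WT and 139, 134 and 131 FPKM in the KI livers. The groups were parted by 12.6% of the lowest WT value. *Hadha* fell by 0.29 on the log2 scale (standard error 0.07, limma adjusted p = 0.0438), a call that was lost without any 1 of the 6 libraries, with adjusted p-values of 0.0533 to 0.157. *Hadhb* had 148, 145 and 162 FPKM in WT and 136, 120 and 127 FPKM in the KI livers. Its groups did not overlap either, and its log2 fold change was -0.25 (95% interval -0.43 to -0.06, limma adjusted p = 0.104). The ratio of *Hadha* to *Hadhb* was 1.10, 1.10 and 1.07 in WT and 1.03, 1.12 and 1.03 in KI, with overlapping groups and a mean log2 difference of -0.04 (exact permutation test, two-sided, p = 0.4).

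*Etfdh*, whose product passes electrons from ETF to ubiquinone, lies on chromosome 3 from 79603788 to 79629500 on the - strand in GENCODE M21, and the interval in the files runs on to 79632820. It had 140, 131 and 155 FPKM in WT and 113, 108 and 117 FPKM in the KI livers. The groups did not overlap, with the highest KI library 10.1% below the lowest WT library, and the log2 fold change of -0.32 (95% interval -0.52 to -0.13) had a limma adjusted p of 0.0568.

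In order of mean FPKM the 10 genes ran in the WT liver from *Acadm* (245) over *Acadvl* (200), *Hadha* (165), *Hadhb* (152), *Etfdh* (142), *Acadl* (137), *Cpt1a* (121), *Acads* (96.1) and *Slc25a20* (91.8) to *Cpt2* (76.9). The ranges of neighbours in this order overlapped except between *Acadvl* and *Hadha*, *Cpt1a* and *Acads*, and *Slc25a20* and *Cpt2*. In the KI liver *Acadvl* (176) came before *Acadm* (172) and *Cpt2* (65.4) before *Slc25a20* (62.8), and in both of these pairs the ranges overlapped. These were abundant transcripts throughout, with ranks of 316 (*Acadm*) to 942 (*Cpt2*) among the genes listed, by WT mean.

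The WT livers varied together. WT replicate 3 was the highest and WT replicate 2 the lowest WT library for 10 of 10 genes, an order that 21.7% of all genes tested followed. Relative to the mean of its group, the median gene of the 10 stood at 0.12 in WT replicate 3 and at -0.10 in WT replicate 2 on the log2 scale, against 0.02 and -0.02 for the median of all genes tested. The KI livers shared no such order, and each of them was the highest of its group for 3 or 4 of the 10 genes. FPKM of the 10 genes summed to 1405, 1310 and 1560 in WT and to 1110, 1107 and 1105 in the KI livers. As a share of all FPKM this was 0.202% to 0.242% in WT and 0.163% to 0.165% in KI, so the groups did not overlap and the KI livers were nearly equal.

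**Figure D3:**
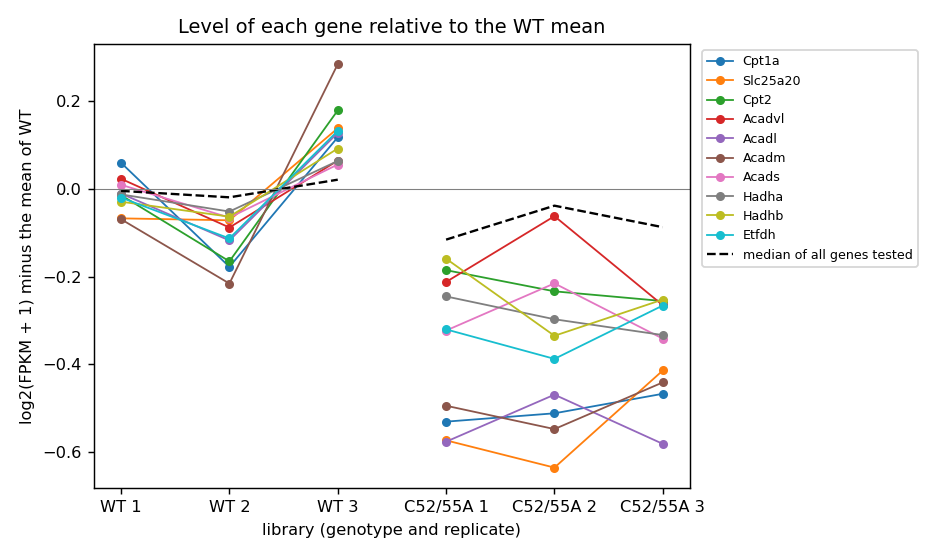
Level of each of the 10 genes in every library as log2(FPKM + 1) minus the mean of the 3 WT libraries (vertical axis), where lines join the values of 1 gene and mark no order of the mice. The dashed line is the median of all genes tested, which stays between -0.12 and 0.02, whereas the 10 genes spread around the WT mean in WT and all lie below it in KI.

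How the libraries are scaled set how many of the genes were called, and left the direction the same. With TPM, which rescales each library to the same sum, 8 of the 10 were called lower (11.1% of all genes tested were called lower), with median-of-ratios scaling 3 (3.32%) and with quantile normalization 2 (3.09%). The median log2 fold change of the 10 genes was -0.37, -0.21 and -0.16 in the same order, and that of all genes tested was -0.14, 0.01 and 0.01. Of all genes called, 78.8% were lower with FPKM as deposited, 87.3% with TPM, 61.9% with median-of-ratios scaling and 59.7% with quantile normalization. *Acadl* and *Slc25a20* were called under all 4 scalings, and *Cpt1a* under all but quantile normalization, where its adjusted p was 0.0615 (limma). With median-of-ratios scaling *Acadm* had a log2 fold change of -0.39 (adjusted p = 0.113) and *Hadha* one of -0.19 (adjusted p = 0.180). 7 of the 10 genes then had groups that did not overlap, against 14.2% of all genes tested that were lower without overlap, and the exceptions were *Cpt2*, *Acadvl* and *Hadhb*.

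**Figure D4:**
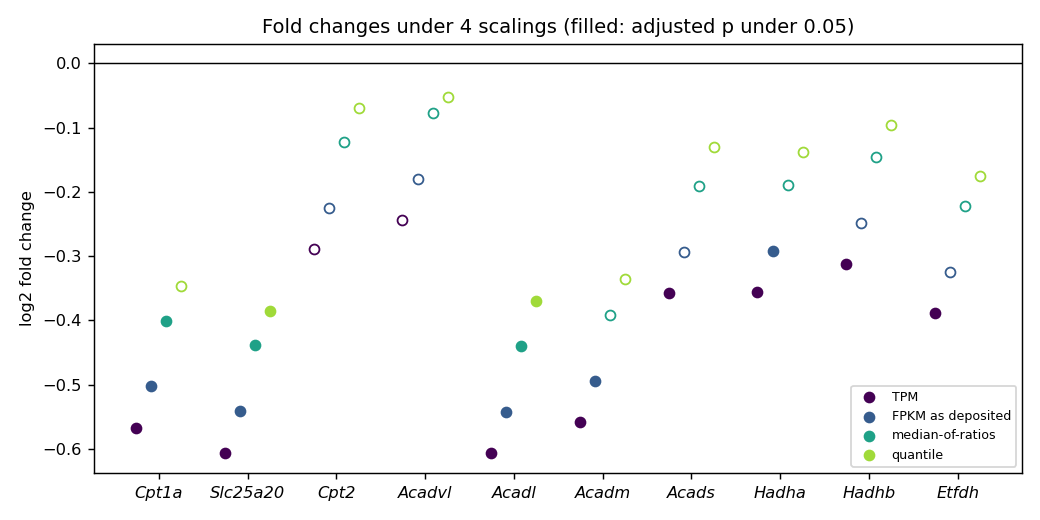
Log2 fold change (vertical axis) of each gene with TPM, FPKM as deposited, median-of-ratios scaling and quantile normalization, from left to right within a gene, filled where the limma adjusted p-value is under 0.05. All 40 values are below 0, and *Acadl* and *Slc25a20* are filled under each scaling.

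The other enzymes of the spiral and of its electron transfer made up a list of 14 genes. Of these 14 genes 6 fell and none rose at an adjusted p-value under 0.05 (limma), against 6.09% of all genes tested that were called lower. For 13 of the 14 every KI library lay below every WT library, against 22.5% of all genes tested. With median-of-ratios scaling this held for 11 of the 14, against 14.2% of all genes tested. The median log2 fold change was -0.37, and -0.27 and -0.25 with median-of-ratios scaling and quantile normalization. *Hadh*, the dehydrogenase of the second oxidation for shorter chains, fell by 0.70 on the log2 scale, with 265, 228 and 302 FPKM in WT and 152, 157 and 177 FPKM in KI. That estimate is larger than any among the 10 genes, a difference that was not tested. *Hsd17b10*, which also oxidises 3-hydroxyacyl-CoA, fell by 0.67, with 168, 186 and 176 FPKM in WT and 100.1, 99.3 and 137 FPKM in KI. Its groups did not overlap. The auxiliary enzymes *Eci1*, *Ech1* and *Decr1*, which bring the double bonds of unsaturated fatty acids into position, fell by 0.59, 0.54 and 0.38, and *Acad9*, which is also an assembly factor of complex I, fell by 0.54. The other subunits of the electron path, *Etfa* and *Etfb*, had log2 fold changes of -0.24 and -0.12 (limma adjusted p = 0.114 and 0.350), with *Etfb* at -0.02 with median-of-ratios scaling and 0.06 with quantile normalization, and *Acaa2*, the thiolase of the spiral, had -0.19 (adjusted p = 0.187). These 3 were picked out after their values were seen. With median-of-ratios scaling 4 of the 14 were called (3.32% of all genes tested were called lower), and *Acad9* and *Decr1* were lost. The number called was 1 without WT replicate 1 or KI replicate 1 and 3 without WT replicate 2 or WT replicate 3, and *Eci1* was called in all 15 settings.

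Activation of fatty acids and the handling of carnitine made up a list of 20 genes, of which 15 passed the filter on low FPKM. Of these 4 fell and none rose (limma, adjusted p under 0.05), against 6.09% of all genes tested called lower and 1.64% called higher. *Crat*, which moves acetyl groups between CoA and carnitine, fell by 0.98 on the log2 scale (adjusted p = 0.0181), with 48.9, 34.2 and 52.3 FPKM in WT and 27.3, 19.98 and 19.3 FPKM in KI. The long-chain acyl-CoA synthetase *Acsl5* fell by 0.47 and the medium-chain synthetase *Acsm3* by 0.38. *Cpt1b*, the muscle form of CPT1, fell by 0.54 on the log2(FPKM + 1) scale, which understates the change at its level of 1.07 to 1.33 FPKM in WT and 0.359 to 0.789 FPKM in KI. With a pseudocount of 0.1 its log2 fold change was -1.11 (limma adjusted p = 0.0564), beside -1.01 for *Crat*. In these libraries the liver form *Cpt1a* made up nearly all CPT1 transcripts in both genotypes. With median-of-ratios scaling *Crat* alone was called of the 15 genes (3.32% of all genes tested were called lower). With quantile normalization *Crat* was called lower and *Acsm1*, another medium-chain synthetase, higher (log2 fold change 0.37, limma adjusted p = 0.0358). The number called was 0 without WT replicate 1 or WT replicate 3, 1 without WT replicate 2 or KI replicate 1 and 2 without KI replicate 3, and *Crat* had adjusted p-values of 0.0108 to 0.0719 over the 15 settings.

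The breakdown of propionyl-CoA, which follows oxidation of odd-numbered chains, had 0 of 4 tested genes called by limma. Before adjustment 3 of the 4 were under 0.05, against 23.6% of all genes tested. The largest log2 fold changes were -0.37 for *Pcca*, -0.35 for *Mcee* and -0.27 for *Pccb*. With TPM 3 of the 4 were called (11.1% of all genes tested were called lower), and with median-of-ratios scaling 0.

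Of 20 regulators of the pathway 1 fell and none rose, a share near the 6.09% of all genes tested that were called lower. The median log2 fold change was -0.11, and -0.05 both with median-of-ratios scaling and with quantile normalization. The gene that fell was *Sirt5*, a mitochondrial desuccinylase (6.27, 5.15 and 6.87 FPKM in WT and 3.60, 4.43 and 3.46 FPKM in KI, log2 fold change -0.55, limma adjusted p = 0.0367). With median-of-ratios scaling its adjusted p was 0.0611 and 0 of the 20 were called, as without WT replicate 1, WT replicate 3, KI replicate 1 or KI replicate 3, whereas 2 were called without KI replicate 2. *Ppara*, *Ppargc1a* and *Acacb* were picked out after their values were seen. *Ppara*, which encodes PPARα, had 28.0, 34.8 and 27.1 FPKM in WT and 33.4, 19.8 and 21.2 FPKM in KI, with overlapping groups and a log2 fold change of -0.29 (limma adjusted p = 0.407). The coactivator *Ppargc1a* was low, at 0.894 to 1.57 and 0.642 to 1.50 FPKM. *Acacb*, which makes the malonyl-CoA that holds back CPT1, had 19.1, 13.3 and 7.12 FPKM in WT and 3.54, 7.01 and 8.33 FPKM in KI, with overlapping groups and an adjusted p of 0.158.

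Targets of PPARα outside the mitochondrial spiral made up a list of 23. Of these 23 such genes 17 fell and none rose (limma, adjusted p under 0.05), against 6.09% of all genes tested that were called lower. The median log2 fold change was -0.69. With median-of-ratios scaling 14 were called, against 3.32% of all genes tested that were called lower. Without WT replicate 1 or KI replicate 1 the number called was 11. The largest log2 fold changes were -2.36 for *Cidec*, a lipid droplet protein that PPARγ controls as well, -2.22 for *Cyp4a14*, an ω-hydroxylase, and -2.21 for *Acot3*, a peroxisomal thioesterase. *Cidec* was called in 8 of the 15 settings, *Cyp4a14* and *Acot3* in all 15. *Cidec* had 25.2, 9.94 and 16.4 FPKM in WT and 0.663, 6.12 and 2.12 FPKM in the KI livers, so that the library with adipocyte transcripts was the highest of its group. *Cyp4a14* had 475, 438 and 731 FPKM in WT and 136, 86.0 and 125 FPKM in KI, with no overlap. This list was written with results of these libraries known, and its count is not independent evidence of its direction.

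Other mitochondrial genes were set beside the 10. Of 17 genes of the tricarboxylic acid cycle 8 fell and none rose, against 6.09% of all genes tested that were called lower. The median log2 fold change was -0.30, close to the -0.31 of the 10 genes. It was -0.19 with median-of-ratios scaling and -0.15 with quantile normalization. All 17 had log2 fold changes below 0 (65.5% of all genes tested). For 14 of the 17 every KI library lay below every WT library (22.5%), and for 12 with median-of-ratios scaling (14.2%). *Suclg2*, a subunit of succinyl-CoA synthetase, had 244, 239 and 269 FPKM in WT and 166, 167 and 163 FPKM in KI, a log2 fold change of -0.60. *Cs*, the citrate synthase, had 62.4, 58.5 and 58.2 FPKM in WT and 40.0, 43.1 and 45.4 FPKM in KI, a log2 fold change of -0.47. *Suclg1*, another subunit of succinyl-CoA synthetase, had -0.47. These were the largest of the list, and 4 of the 17 were called with median-of-ratios scaling (3.32% of all genes tested were called lower). Left-out libraries gave 1 call without WT replicate 1 or KI replicate 1, 2 without WT replicate 3, 3 without WT replicate 2 and 4 without KI replicate 3, and *Suclg2* was called in all 15 settings. Of 20 genes for other mitochondrial functions, among them outer membrane channels, protein import, chaperones and maintenance of mitochondrial DNA, 1 fell, *Tomm20* (by 0.38, limma adjusted p = 0.0394), with a median of -0.18 that became -0.07 with median-of-ratios scaling, where 0 were called. The count is near the 6.09% of all genes tested that were called lower. However, all 20 had log2 fold changes below 0 (65.5% of all genes tested). For 13 of the 20 every KI library lay below every WT library (22.5%), and for 4 with median-of-ratios scaling (14.2%). *Tomm20* kept its call without KI replicate 2 and lost it without any other single library. Of the 13 protein-coding genes of mitochondrial DNA 0 were called by limma and 3 were under 0.05 before adjustment, near the 23.6% of all genes tested. Their median was -0.13, -0.20 with TPM, -0.03 with median-of-ratios scaling, where 0 were called, and -0.33 with quantile normalization, where 3 of the 13 were called lower. The largest log2 fold changes were -1.05 for *mt-Atp8*, -0.26 for *mt-Cytb* and -0.23 for *mt-Co2*.

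**Figure D5:**
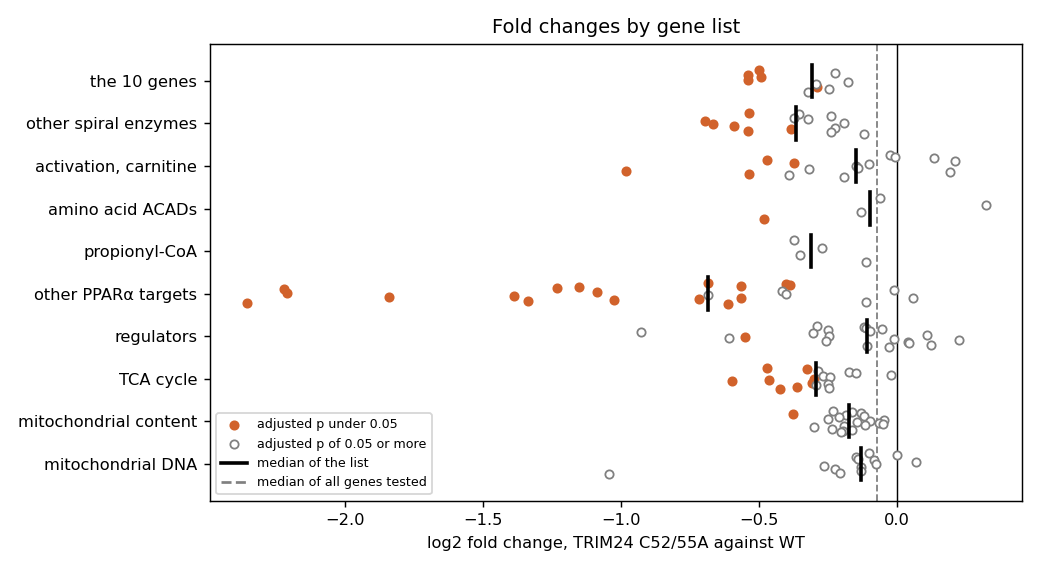
Log2 fold changes in the KI against the WT liver (horizontal axis), 1 point per gene tested, by list, with orange points for an adjusted p-value under 0.05 and black bars for the median of each list. The bar of the 10 genes (-0.31) lies beside those of the other spiral enzymes (-0.37) and the tricarboxylic acid cycle (-0.30), to the right of the other PPARα targets (-0.69) and to the left of the regulators (-0.11). It also lies to the left of mitochondrial DNA (-0.13), an order that reverses with quantile normalization (-0.16 for the 10 genes and -0.33 for mitochondrial DNA).

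The genes most like the 10 were sought among 4385 other genes whose mean reached 10 FPKM, by the root mean square difference from the mean profile of the 10 over the 6 libraries, on the log2 scale. *Ppcs*, of coenzyme A synthesis, came first (difference 0.0248), with 17.3, 15.5 and 19.3 FPKM in WT and 13.0, 13.3 and 13.5 FPKM in KI. It was followed by *Sh3bgrl* (0.0264), *Gatad1* (0.0270), *Polr2j* (0.0348) and *Ndufa7*, a subunit of complex I (0.0354). These genes were chosen for that profile, and their fold changes are therefore no separate result.

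The promoters of the 10 genes, taken from RefSeq (GRCm38.p6) as the 250 bases before and 50 bases after the start of each gene, were searched on both strands for 3 sequences. The direct repeat of AGGTCA with 1 base between its copies, which PPARα binds together with RXR, matched 0 of the 10 and 0.0396% of all 32851 promoters. The element TCAAGGTCA of oestrogen-related receptors matched 0 of the 10 and 0.423% of all promoters. The half-site AGGTCA, which is part of both, matched 3 of the 10, those of *Cpt1a*, *Acadm* and *Acadvl*, and 16.3% of all promoters. The matches say only that these letters are in the window. Inexact copies of the 3 sequences, and elements farther from the start, were not searched. The exact direct repeat was in 13 of all 32851 promoters, so 0 of 10 cannot show that these genes lack such an element. In GENCODE M21 the *Acadm* and *Acadvl* windows overlap no gene, and the *Cpt1a* window lies before the first exon of Cpt1a-201 and in an intron of Cpt1a-206, which starts farther upstream. The windows around the 3 matches are shown because *Cpt1a* and *Acadm* are among the genes with the larger falls and *Acadvl* is the gene whose groups overlapped. Capitals mark the half-site, written as AGGTCA or, on the opposite strand, as TGACCT, and each sequence runs 5′ to 3′ along the gene's own strand.
Cpt1a, chr19:3323195-3323224, + strand, half-site 94 to 89 bases before the start: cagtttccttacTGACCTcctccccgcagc
Acadm, chr3:153944864-153944893, - strand, half-site 249 to 244 bases before the start: gTGACCTtcgggctccggtgacactgggca
Acadvl, chr11:70015498-70015527, - strand, half-site 87 to 82 bases before the start: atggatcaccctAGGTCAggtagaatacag
The GC content of the 10 promoters ran from 50.7% (*Acadvl*) to 70.3% (*Acadl*) with a median of 59.7%, against a median of 52.7% over all promoters, and they held 9 to 34 CG dinucleotides against a median of 7.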

How the data were processed

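For each mouse the authors deposited 1 table of FPKM with gene name and interval, listing genes above 0. Genes missing from a table were set to 0. The hepatocyte markers *Alb* and *Tf* had no value under those names in any library, and their levels are not known here. A missing gene is therefore not shown to be unexpressed. The submitters' processing notes name the build GRCm38, bcl2fastq, Salmon 0.14.0 and DESeq2 1.30.0, with no roles. The aligner and annotation are not given in the sources used here. Groups came from the genotype label. The test across genes was limma (version 3.58.1, R 4.3.3) on log2(FPKM + 1), run on the 12225 genes whose mean reached 0.5 FPKM, with lmFit, eBayes with a mean-variance trend, genotype as the only term and Benjamini-Hochberg adjustment. It was first tested on simulated data. P-values of limma set the difference of the group means against the spread of mice within a genotype. eBayes draws that spread towards a trend over all genes tested. They rest on 3 mice per genotype. Fold changes of genes of low FPKM are understated on this scale. Ratios within a library had an exact permutation test. The statistics section of the paper gives a test for any pair of groups and does not tie it to the sequencing data. Intervals of the files were set against GENCODE M21, and promoters came from RefSeq (GRCm38.p6). Protein sequences were not used here. Tables were handled with pandas 2.3.3 and plots drawn with matplotlib 3.10.9.

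The 10 genes, the lists of other genes and the rule for naming genes (all 10 genes, the called genes of each list, or the 3 with the largest fold change where none or more than 6 were called, and the 5 most alike genes) were chosen with earlier results of these data known. Further marker lists were endothelial, stellate, macrophage, cholangiocyte, lymphocyte and muscle, with summed FPKM of 101 to 108, 124 to 133, 209 to 268, 28.5 to 53.8, 3.22 to 3.62 and 0.0414 to 0.331 in WT and of 93.4 to 102, 113 to 147, 180 to 246, 21.8 to 34.0, 4.12 to 4.48 and 0 to 0.0439 in TRIM24 C52/55A.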

Additional observations from a re-analysis of the deposited data

How the results depend on the processing

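All 10 genes kept a negative log2 fold change in each of the 15 alternatives. The number of the 10 called at an adjusted p-value under 0.05, 5 as reported, was 2 without a filter on low FPKM, 8 with TPM, 3 with median-of-ratios scaling, 2 with quantile normalization and 3 without the mean-variance trend, and it ran from 1 to 4 with 1 library left out, lowest when either WT replicate 3 or KI replicate 1 was dropped. Over all genes tested the number called, 944 as reported, was 347 without the filter, 1555 with TPM and 578 with the replicate block, and 296 to 1272 with 1 library left out. In the other lists together, 38 as reported, it was 16 without the filter, 23 with median-of-ratios scaling, 24 with quantile normalization and 25 with the replicate block, and 13 to 35 with 1 library left out. The median log2 fold change of the 10 genes was -0.21 with median-of-ratios scaling and -0.16 with quantile normalization, and -0.35 to -0.26 with 1 library left out. The ratio of *Acadl* to *Acadvl* kept a log2 difference of -0.39 to -0.33, that of *Cpt1a* to *Cpt2* one of -0.31 to -0.24 and that of *Hadha* to *Hadhb* one of -0.08 to -0.02 with 1 library left out. Replicate numbers of the 2 genotypes name different mice, and the correlations of deviations between same-numbered libraries were -0.123, -0.0988 and 0.00267 across genes. With the replicate block 4 of the 10 genes were called, and *Hadha* was lost (limma adjusted p = 0.111). The causes of these changes were not tested, beyond the fewer libraries or the more genes tested.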
